A study of Mus musculus with 8 samples.

Results

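The genes described here are 9 genes of the smooth muscle contractile apparatus, measured in cultured mouse keratinocytes (KCs). They are Acta2, Actg2, Tagln, Cnn1, Myl9, Tpm1, Tpm2, Mylk and Srf, and their rows were found by gene name among the 41457 genes listed for each sample. All 9 passed the filter on low counts that left 12590 genes. They were selected on their reads and RPKM at 1 week and 3 weeks in these same samples. Their levels and fold changes are therefore given as a description, without a test.

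KCs are the epithelial cells of the epidermis. They were prepared from tail skin of adult wildtype C57BL/6 mice (C57BL/6J in the study's text) and grown without further treatment in serum-free KC medium of low calcium content. Poly(A) RNA was sequenced from 4 samples after 1 week and 4 samples after 3 weeks of culture, numbered as replicates 1 to 4 at each time. All samples share strain, genotype, tissue of origin and medium, so the time of culture is the factor that the labels set apart. Cells were split when nearly confluent, and passage and time in culture cannot be told apart.

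In smooth muscle, actin filaments built from Acta2 and Actg2 slide along myosin. Mylk phosphorylates the regulatory myosin light chain, Myl9 among others, while tropomyosins (Tpm1, Tpm2), calponin (Cnn1) and transgelin (Tagln) lie along the actin filament. Many of these genes carry CArG boxes, the DNA elements bound by the serum response factor Srf, whose partners of the myocardin family are released when globular actin is consumed. Epithelial cells normally hold little of the smooth muscle isoforms. They rely on the cytoplasmic actins Actb and Actg1, on non-muscle tropomyosins and on Myl12a and Myl12b. Non-muscle tropomyosins come from Tpm3 and Tpm4 and also from Tpm1 and Tpm2. Acta2 is widely used as a mark of myofibroblasts and of myoepithelial cells.

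The promoters of 3 members hold sequences of the CArG kind just upstream of the start site, and they are printed because these elements link the contractile genes to Srf. A CArG box is CC, then 6 bases that are each A or T, then GG, a pattern that reads alike on both strands. It was searched in the 250 bases before each RefSeq start, together with a looser form in which 1 of the 6 core bases is neither A nor T. The stretches below are from RefSeq on GRCm38.p6, each on the strand of its gene and 130 bases long, and the capitals mark the boxes of both forms. The Acta2 stretch is chr19:34255374-34255503 on the minus strand, the Myl9 stretch is chr2:156775290-156775419 on the plus strand, and the Srf stretch is chr17:46556176-46556305 on the minus strand.
Acta2: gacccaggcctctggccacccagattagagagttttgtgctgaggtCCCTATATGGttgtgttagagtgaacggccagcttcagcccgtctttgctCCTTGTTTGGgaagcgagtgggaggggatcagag
Myl9: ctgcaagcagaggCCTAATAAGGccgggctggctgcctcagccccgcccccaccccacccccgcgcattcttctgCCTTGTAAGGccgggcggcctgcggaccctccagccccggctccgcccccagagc
Srf: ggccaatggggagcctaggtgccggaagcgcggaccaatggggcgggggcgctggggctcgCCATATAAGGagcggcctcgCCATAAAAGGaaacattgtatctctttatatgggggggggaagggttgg

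The strict pattern occurs at CCATATAAGG (bases -82 to -73 from the start) and CCATAAAAGG (-62 to -53) of Srf, and at CCTAATAAGG (-161 to -152) of Myl9. The looser form occurs at CCCTATATGG (-84 to -75) and CCTTGTTTGG (-34 to -25) of Acta2, and at CCTTGTAAGG (-99 to -90) of Myl9. Of 32851 promoters in the RefSeq table, 482 (1.47%) held the strict pattern and 2380 (7.24%) the looser form. Counted by gene symbol, as the members are, 439 of 27025 held the strict pattern and 2252 the looser form. Of the 9 members, 7 had an entry, and 2 of these 7 held the strict pattern and 2 of 7 the looser one. Myl9 is in both counts, and Cnn1, Tpm1, Tpm2 and Mylk held neither form in this window. Actg2 and Tagln had no entry. These matches describe letters in a window, and binding was not measured here.

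Each library held between 13896807 and 20026084 reads on exons, of which 81.6% to 84.7% mapped to 1 place. Values are reads or RPKM, in which exon reads are divided by exon length and library depth. Fold changes are log2 values, 3 weeks over 1 week, from the edgeR fit of exon reads over all tested genes, and their errors are standard errors (SE). The median of all tested genes was 0.03 in this fit and -0.16 on log2(RPKM + 0.1), so that the scaling alone moves a log2 fold change by a small amount. At 3 weeks, replicates 3 and 4 stood apart by transcript length. Genes with over 6000 exon bases deviated from the mean of their group by -0.59 (log2) in replicate 3 and by 0.44 in replicate 4, relative to genes with under 2000 exon bases, against -0.22 to 0.23 in the other 6 libraries. Long genes were thus low in replicate 3 and high in replicate 4.

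Of the 9 contractile genes, 8 had higher RPKM in each 3 weeks sample than in any 1 week sample, and Srf was the exception. Over all tested genes, 10.8% were higher at 3 weeks without overlap between the groups, and nothing is read from the count of the members, since these values chose them. In the fit, 8 members were at least 2-fold higher (9.22% of all tested genes). Acta2, Actg2, Cnn1 and Mylk had the largest fold changes, each at least 8-fold. The median log2 fold change of the 9 members was 2.53, also with Actg2, which had few reads, set at the lower end of its counting interval. Leaving out replicate 3 or replicate 4 of the 3 weeks samples gave medians of 2.67 and 2.80. In bulk RNA, more cells that hold a transcript and more of it in each cell cannot be told apart.

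**Figure D1:**
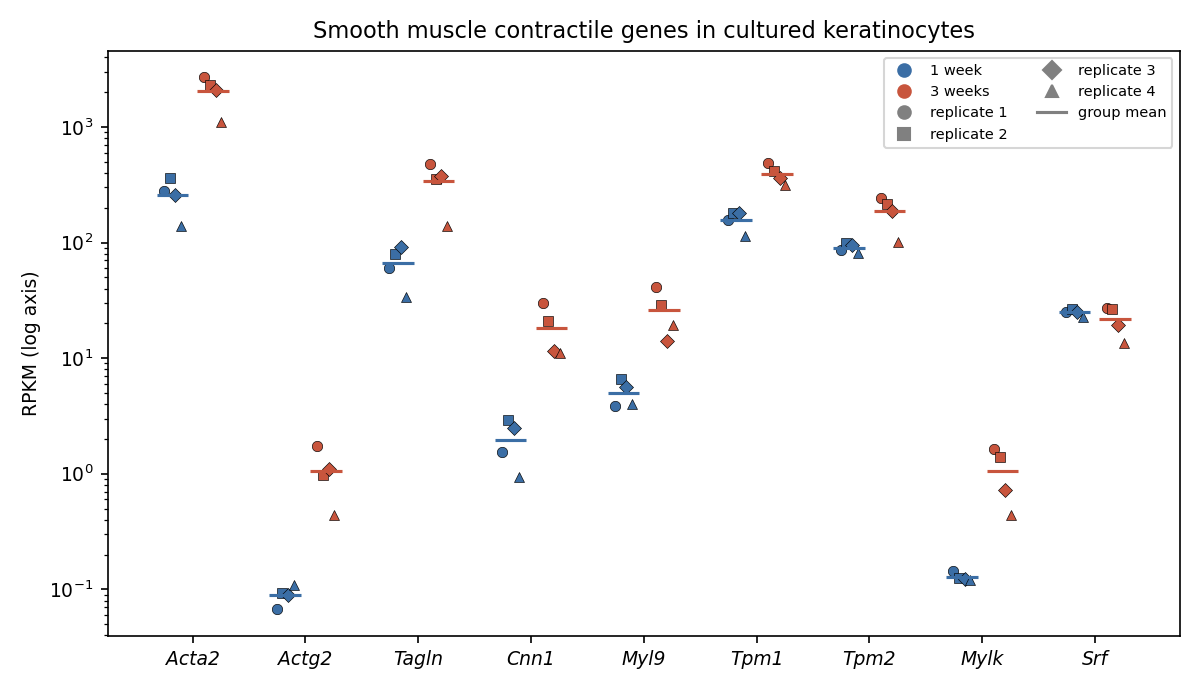
RPKM (log axis) of the 9 members in each of the 8 samples, with 1 week in blue, 3 weeks in red, 1 symbol per replicate number and a line at each group mean. The groups are separate for all members but Srf, and the 3 weeks triangle (replicate 4) is the lowest of its group for 8 of the 9 members.

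Acta2 encodes α-smooth muscle actin, the actin of contractile smooth muscle cells (ENSMUSG00000035783, chr19:34241090-34255336 on the minus strand). Its RPKM was 279, 364, 259 and 138 in replicates 1 to 4 at 1 week and 2690.0, 2289.9, 2106.0 and 1112 in replicates 1 to 4 at 3 weeks. The lowest 3 weeks sample lay above the highest 1 week sample, and replicate 4 was the lowest at both times. The group means were 260.2 ± 93.1 and 2049.6 ± 671 (SD, n = 4), and the fit gave a log2 fold change of 3.15 (SE 0.37). By mean RPKM, Acta2 ranked 201st among all listed genes at 1 week and 23rd at 3 weeks. Between 4350 and 89294 reads lay behind each value, and 99.97% of them mapped to 1 place.

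Actg2, the γ-actin of visceral smooth muscle (chr6:83512905-83536265 on the minus strand), was near the limit of detection. It had 2, 3, 2 and 3 reads at 1 week and 50, 25, 28 and 10 reads at 3 weeks, all mapping to 1 place. At 1 week no sample exceeded 3 reads, which correspond to 0.0935 to 0.134 RPKM in these libraries, whereas all 3 weeks samples did. Summed per group and divided by depth, 113 reads at 3 weeks stood against 10 at 1 week, a ratio of 12.2 with an exact 95% counting interval of 6.42 to 26.2. The interval covers counting error only. Junction-spanning reads numbered 1, 0, 0 and 1 at 1 week and 19, 9, 11 and 4 at 3 weeks. Actg2 had 2.11 to 6.90 reads per 10000 Acta2 reads at 1 week and 3.44 to 5.60 at 3 weeks, ranges that overlap. No stretch of 59 bases, the read length, was shared without mismatch between its transcripts and those of any other gene. Whether Acta2 reads with mismatches were placed on Actg2 was not tested.

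Acta2 made up a larger part of the actin transcripts at 3 weeks than at 1 week. Of the summed RPKM of the 6 conventional actin genes, Acta2 took 6.61%, 7.67%, 6.15% and 3.86% at 1 week and 32.2%, 29.02%, 29.8% and 20.8% at 3 weeks. The share of Actg1 lay between 59.4% and 64.5% at 1 week and between 41.2% and 54.4% at 3 weeks. Actb took 28.0% to 35.5% at 1 week and 13.8% to 26.6% at 3 weeks. Since shares add up to a whole, a lower share of Actg1 or Actb does not mean a lower level: mean RPKM was 2559 ± 305 and 3436 ± 523 for Actg1 and 1339 ± 135 and 1493 ± 407 for Actb (SD, n = 4).

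Tropomyosins cover the actin filament and gate its contact with myosin. Tpm1 (chr9:67022590-67049406 on the minus strand) had 156, 180.2, 181 and 114 RPKM at 1 week and 488, 416, 365 and 315 RPKM at 3 weeks, which gave a log2 fold change of 1.49 (SE 0.21). Tpm2 (chr4:43514711-43523765 on the minus strand) had 86.0, 98.6, 94.9 and 81.0 RPKM at 1 week and 244, 217, 188 and 102 RPKM at 3 weeks, a difference of 1.23 in log2 (SE 0.25). Both genes were separate between the times, but for Tpm2 replicate 4 at 3 weeks was only just above the highest 1 week sample. These were the smallest differences among the 8 members that were higher, and by mean RPKM at 1 week the genes already ranked 326th and 586th of all listed genes. Among the 4 tropomyosin genes, Tpm1 took 17.3% to 23.2% of the summed RPKM at 1 week and 32.1% to 37.4% at 3 weeks, while Tpm4 took 60.6% to 68.1% and 41.8% to 49.3%. The tables give 1 value per gene, and Tpm1 with 21 and Tpm2 with 6 annotated transcripts each make muscle and non-muscle isoforms, which these values do not separate. The Tpm1 gene also had 101 to 158 intron reads at 1 week and 314 to 613 at 3 weeks, the most of any member.

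**Figure D2:**
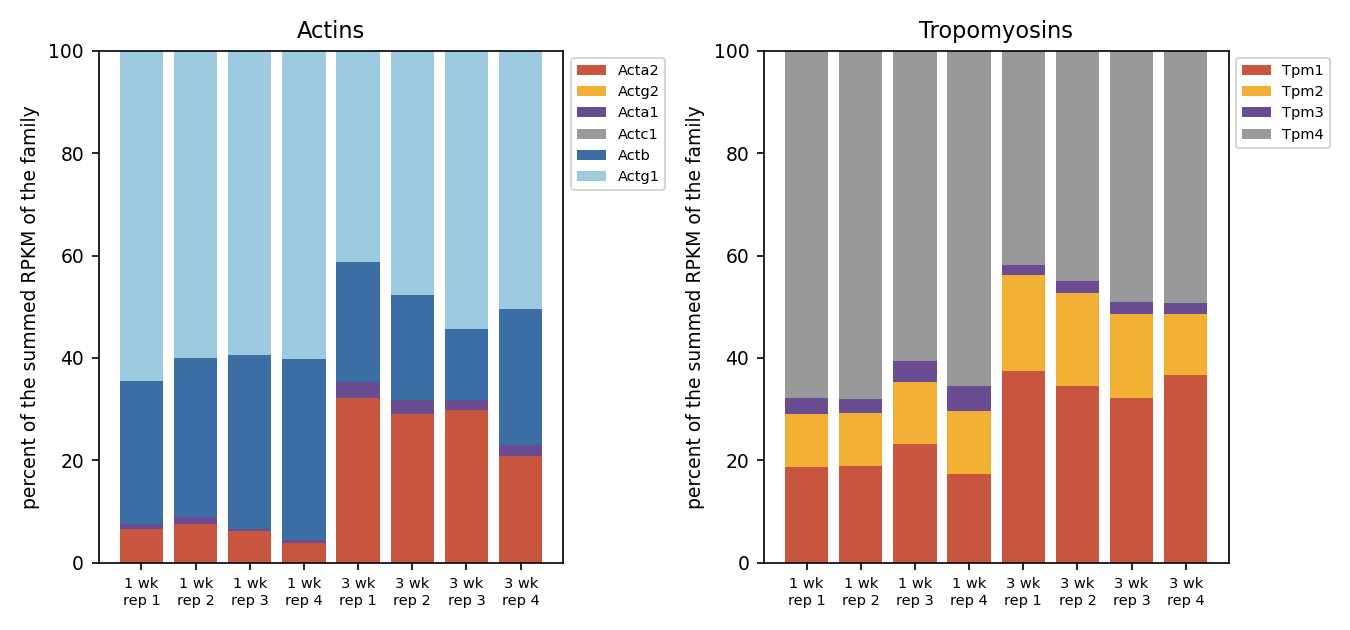
Percent of the summed RPKM of the actin family (left) and the tropomyosin family (right) taken by each gene in each of the 8 samples. The red Acta2 segment spans 3.86% to 7.67% at 1 week and 20.8% to 32.2% at 3 weeks, and the Tpm4 segment is smaller in each 3 weeks sample than in any 1 week sample.

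Tagln encodes transgelin (SM22α), an actin-binding protein abundant in smooth muscle (chr9:45929619-45936058 on the minus strand). Its RPKM was 60.0, 80.3, 92.1 and 33.8 at 1 week and 482, 356, 378 and 138 at 3 weeks, and its log2 fold change was 2.53 (SE 0.43). Replicate 4 was again the lowest at both times, and the groups did not overlap. Of the Tagln reads, 32.6% mapped to 1 place. The antisense gene Gm48529 overlaps Tagln over 3627 bases on the opposite strand and had 7 to 68 reads, and 56.5% of the stretches of 59 bases in the Tagln transcripts were shared with another gene. With reads that mapped to 1 place, the log2 fold change was 2.55. Within its family, Tagln took 6.36% to 13.7% of the summed RPKM at 1 week and 33.8% to 42.1% at 3 weeks, the rest being almost entirely Tagln2, the form common in other cells.

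Cnn1, the smooth muscle calponin that binds actin and damps the myosin ATPase (chr9:22099216-22109630 on the plus strand), started at a low level. Its RPKM was 1.56, 2.89, 2.47 and 0.932 at 1 week and 30.0, 20.9, 11.6 and 11.1 at 3 weeks. The means of 1.96 ± 0.885 and 18.4 ± 8.94 (SD, n = 4) gave a log2 fold change of 3.39 (SE 0.43). Replicates 1 and 2 at 3 weeks were well above replicates 3 and 4, yet the groups did not overlap. Even at 3 weeks Cnn1 made up 2.07% to 4.52% of the summed RPKM of the 3 calponin genes, against 0.267% to 0.599% at 1 week.

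Myl9, the regulatory light chain of smooth muscle myosin, and Mylk, the kinase that switches this light chain on, were both low in level. Myl9 (chr2:156775420-156781658 on the plus strand) had 3.84, 6.56, 5.58 and 4.05 RPKM at 1 week and 41.2, 28.9, 14.1 and 19.2 RPKM at 3 weeks, and its log2 fold change was 2.52 (SE 0.33). It was the member for which replicate 3, not replicate 4, was the lowest at 3 weeks. Myl9 held 1.66% to 2.63% of the summed RPKM of the 3 regulatory light chains at 1 week and 3.70% to 11.2% at 3 weeks, and Myl12a remained the main one in all samples.

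Mylk (chr16:34745210-35002420 on the plus strand) had 0.145, 0.125, 0.124 and 0.121 RPKM at 1 week and 1.65, 1.41, 0.730 and 0.441 RPKM at 3 weeks. The 1 week samples lay close together and those of 3 weeks spread widely, without overlap between the groups. The log2 fold change was 3.19 (SE 0.41). It rests on 20 to 31 reads per sample at 1 week and 73 to 346 at 3 weeks. Only 18.7% of all Mylk reads had a single place in the genome. From these alone, 3 to 7 reads at 1 week and 18 to 62 at 3 weeks, the log2 fold change was 3.01. Per exon length, the kinase stayed far below its substrate Myl9 in each sample.

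Srf, the transcription factor that binds CArG boxes, did not share the pattern (chr17:46548329-46556175 on the minus strand). Its RPKM was 25.2, 26.4, 25.3 and 22.6 at 1 week and 27.1, 26.8, 19.3 and 13.5 at 3 weeks. Replicates 1 and 2 at 3 weeks were slightly above all 1 week samples, and replicates 3 and 4 were below them. The log2 fold change was -0.04 (SE 0.21), and omission of single samples gave -0.14 to 0.15. Only 12.8% of its reads mapped to 1 place, and the lincRNA Gm26904, with 0 reads, overlaps the whole gene on the opposite strand. With reads of 1 place, the log2 fold change was -0.00.

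**Figure D3:**
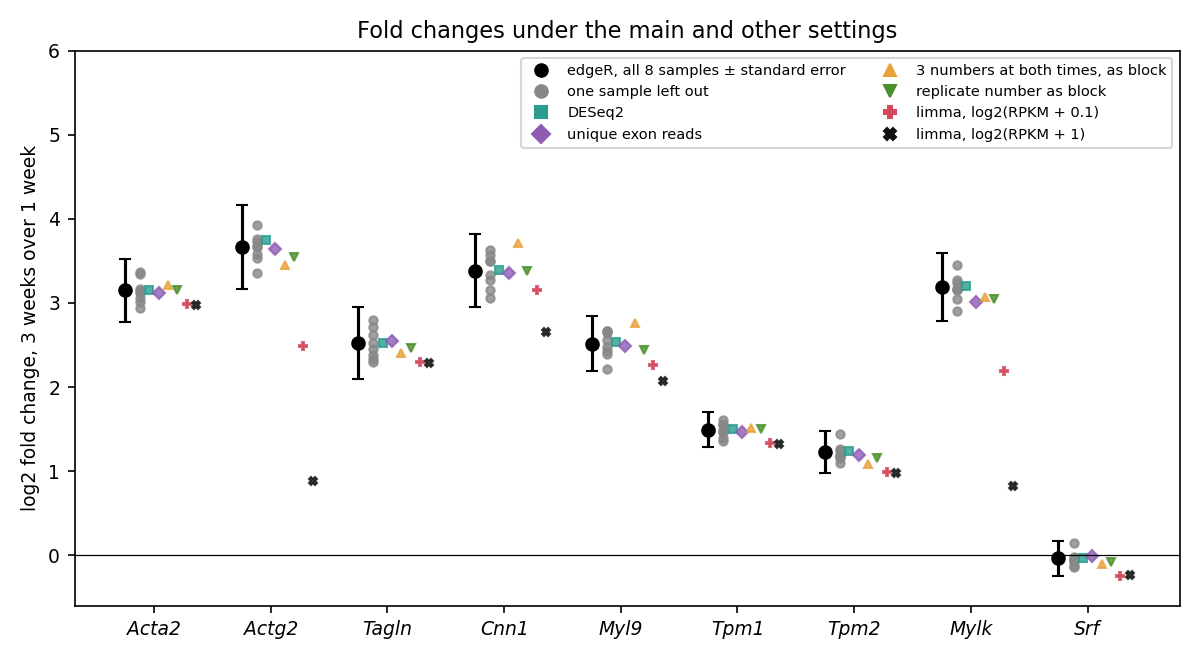
Log2 fold change of each member, 3 weeks over 1 week, from the edgeR fit of all 8 samples with its standard error (black), with each sample left out (grey) and under 6 other settings (colours). Points of the 8 other members are all above 0, the lowest being those of Actg2 and Mylk at 0.88 and 0.82 on log2(RPKM + 1), and the points of Srf lie around 0.

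The order of the samples was much alike from member to member. Replicate 1 was the highest 3 weeks sample for all 9 genes and replicate 4 the lowest for 8 of 9, and replicate 4 was the lowest 1 week sample for 7 of 9. How often these samples take the same places over all tested genes was not counted. The order is therefore not read as particular to the members. The deposited tables carry a number besides the time (46, 49 and 90 occur at both times), which the labels do not explain. The study's text speaks of shared KC batches for both times, without tying them to samples. Taking the samples with the same number together, the RPKM ratio of 3 weeks to 1 week of Acta2 was 9.64, 8.83 and 8.03 for numbers 46, 49 and 90. For Tagln these ratios were 8.03, 3.87 and 4.08. For Mylk they were 11.4, 11.4 and 3.65. Number 46 gave the highest ratio for all 9 genes, though only just for Mylk and Srf (1.08, 1.06 and 0.599). These ratios were not taken over all tested genes, so nothing is read from that count. The ratios were 19.3, 8.47 and 11.9 for Cnn1, 10.7, 5.18 and 4.75 for Myl9, and 2.83, 2.29 and 1.26 for Tpm2. They were 3.12, 2.30 and 2.77 for Tpm1, and 25.5, 10.9 and 4.00 for Actg2, which had few reads.

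The genes whose profile over the 8 samples was most like the mean profile of the members were Ifi27l2b, Chst12, Nbl1, Fam69a and Pak1. Their Pearson r with that profile was 0.991, 0.991, 0.990, 0.989 and 0.989. This likeness is a description over 8 samples that share the difference between the times. Each member is itself part of that profile. Those other than Srf had r from 0.9498 (Myl9) to 0.984 (Tpm2), and Srf had 0.285. Ifi27l2b, a gene of the interferon-inducible Ifi27 family, had a mean of 1.59 RPKM at 1 week and 26.3 RPKM at 3 weeks, while Pak1, a kinase downstream of Rac and Cdc42, had 20.6 and 28.9 RPKM.

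Among other genes of the smooth muscle programme, 8 of the 14 tested rose and none fell, out of 18 on the list. Over all tested genes, 32.8% changed, of which those that rose made up 15.7% and those that fell 17.0% of all, at an adjusted p-value under 0.05 (edgeR quasi-likelihood test, Benjamini-Hochberg adjustment). The median log2 fold change of the 14 was 1.37. Lmod1, a leiomodin that nucleates actin filaments in smooth muscle, had 0.319, 0.738, 0.212 and 0.187 RPKM at 1 week and 5.98, 2.39, 0.463 and 4.53 RPKM at 3 weeks. It rose by 3.30 (log2, SE 0.72, adjusted p = 0.00826 by edgeR), although replicate 3 at 3 weeks lay within the range of 1 week. Mcam, the cell adhesion molecule CD146 of vascular wall cells, had 5.06, 10.8, 4.55 and 1.90 RPKM at 1 week and 65.9, 47.1, 34.4 and 25.7 RPKM at 3 weeks, without overlap. Its log2 fold change was 3.12 (SE 0.50, adjusted p = 0.00207 by edgeR).

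Ppp1r12b, a targeting subunit of myosin phosphatase, rose by 2.33 (log2, SE 0.26, adjusted p = 0.000496 by edgeR), with 0.273 to 0.586 RPKM at 1 week and 1.47 to 2.30 RPKM at 3 weeks. Only 17.2% of its reads mapped to 1 place, and these gave a log2 fold change of 2.16. Synpo2, an actin-bundling protein of muscle, rose by 2.33 (SE 0.52, adjusted p = 0.00890 by edgeR). Its replicate 3 at 3 weeks (0.514 RPKM) lay within the range of 1 week (0.148 to 0.558 RPKM). The other genes that passed the test were Csrp1, Cald1, Nexn and Filip1l, named after their values were seen. Csrp1, a LIM protein of the actin cytoskeleton, was the most abundant of the list, with 340 to 638 RPKM at 1 week and 618 to 1378 RPKM at 3 weeks. The call of Filip1l was lost when any of 6 of the 8 samples was left out (all but replicates 2 and 3 at 3 weeks). Only 0.631% of the Filip1l reads were counted as mapping to 1 place.

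The 2 most abundant genes of this list that did not pass were Pdlim7, at 0.37 in log2 (adjusted p = 0.223 by edgeR), and Smtn, at -0.36 (adjusted p = 0.422). Without replicate 4 at 3 weeks, Pdlim7 passed. Myh11, Des, Pdlim3 and Kcnmb1 had too few reads to be tested. Myh11, the smooth muscle myosin heavy chain, had 0.0138 to 0.0447 RPKM at 1 week and 1.21, 0.376, 0.0320 and 1.496 RPKM at 3 weeks. It was thus at the 1 week level in replicate 3 of 3 weeks, the library in which long genes were low. Des, the muscle intermediate filament desmin, had 3 to 11 reads in all 8 samples.

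Paralogs of the members include the forms that non-muscle cells use. Of 19 genes on this list 14 were tested, 3 rose and none fell, with a median log2 fold change of 0.64. The shares over all tested genes were 15.7% risen and 17.0% fallen. Acta1, the skeletal muscle α-actin, had 38.3, 60.6, 21.9 and 18.1 RPKM at 1 week and 264, 221, 141 and 115 RPKM at 3 weeks. Its log2 fold change was 2.57 (SE 0.42, adjusted p = 0.00212 by edgeR). Of its reads 23.8% mapped to 1 place, which gave 2.59. Myl12a, a regulatory light chain of non-muscle myosin, rose by 0.86 (SE 0.15, adjusted p = 0.00305 by edgeR), but only 0.0805% of its reads mapped to 1 place, which gave 1.63 (SE 0.41). Cnn3, the calponin of non-muscle cells, rose by 0.48 (SE 0.12, adjusted p = 0.0171 by edgeR), a call that was lost without replicate 3 or 4 at 1 week or replicate 2 at 3 weeks. Actg1, at 0.60 in log2 (adjusted p = 0.0574), and Actb, at 0.31 (adjusted p = 0.275), did not pass by edgeR. Of the Actg1 reads 36.7% mapped to 1 place, and with these reads Actg1 passed (log2 fold change 0.56, adjusted p = 0.0389 by edgeR), as it did without replicate 4 at 3 weeks and by DESeq2. Without replicate 3 at 3 weeks the list had 6 rises, and without replicate 4 at 3 weeks it also had 6.

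Srf acts with the actin-regulated cofactors Mkl1 and Mkl2 (MRTF-A and MRTF-B), with myocardin in muscle and with the Elk factors, and kinases and formins that act on actin polymerization feed into it. Of 28 genes of this pathway, 27 were tested, 4 rose and 3 fell, with a median log2 fold change of 0.22. Neither count was above the share of all tested genes, of which 15.7% rose and 17.0% fell. Myocd, the muscle-restricted cofactor, had 0 reads in all 8 samples. Mkl1 and Mkl2, named for their role, had log2 fold changes of 0.20 and 0.62 and did not pass the test, except Mkl2 without replicate 3 at 3 weeks. Scai, which binds the Mkl cofactors and holds them back, rose by 0.99 (SE 0.17, adjusted p = 0.00247 by edgeR). Foxo4, a forkhead factor that binds myocardin, rose by 0.74 (adjusted p = 0.0127 by edgeR), a call that was lost without replicate 1 at 1 week. Diaph3, a formin that elongates actin filaments, fell by 1.60 (SE 0.28, adjusted p = 0.00310 by edgeR), from 7.47 to 12.0 RPKM at 1 week to 1.45 to 4.26 RPKM at 3 weeks. Arhgef2, a guanine nucleotide exchange factor, fell by 0.77 (adjusted p = 0.0431 by edgeR), and this call was lost when any sample but replicate 3 at 1 week was left out. Cfl1, the actin-severing cofilin, and Calm2, a calmodulin that activates Mylk, were the most abundant that did not pass (0.18 each in log2, adjusted p = 0.636 and 0.496 by edgeR), and Cfl1 passed without replicate 4 at 3 weeks. The number of rises was 7 without replicate 4 at 3 weeks and 2 without replicate 1, 2 or 4 at 1 week or replicate 1 or 2 at 3 weeks.

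Proteins of actin bundles and focal adhesions carry the tension that such filaments make. All 20 genes of this list were tested, 5 rose and none fell, with a median log2 fold change of 0.55. Among all tested genes, 15.7% rose and 17.0% fell. Fhl1, a LIM protein of muscle, had 39.2, 43.0, 27.9 and 17.5 RPKM at 1 week and 107, 93.2, 76.2 and 54.5 RPKM at 3 weeks. It rose by 1.54 (SE 0.31, adjusted p = 0.00530 by edgeR), and the groups did not overlap. Vcl, or vinculin, rose by 1.15 (adjusted p = 0.0170 by edgeR), a call that was lost without replicate 1 at 1 week. Bcar1, a scaffold of focal adhesions, rose by 1.01 (SE 0.16, adjusted p = 0.00165 by edgeR), while Lpp, a LIM protein of the same sites, rose by 0.79 (adjusted p = 0.0317 by edgeR) in a call that 5 of the 8 omissions ended (replicates 1, 3 and 4 at 1 week, 1 and 2 at 3 weeks). Actn1, with 0.70 (adjusted p = 0.0974), and Flna, with 0.46 (adjusted p = 0.157), did not pass by edgeR, although Actn1 did without replicate 3 at 3 weeks. The number of rises was 10 without replicate 3 and 8 without replicate 4 at 3 weeks, 3 without replicate 1 or 2 at 3 weeks or replicate 3 or 4 at 1 week, and 2 without replicate 1 at 1 week.

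The immediate early genes are the other class of Srf targets, switched on briefly by growth factors. Of 12 genes, all tested, 1 rose and 4 fell, with a median log2 fold change of -0.52. By comparison, 15.7% of all tested genes rose and 17.0% fell. Egr3, a zinc finger factor, had 0.536, 0.859, 1.77 and 3.74 RPKM at 1 week and 0.256, 0.318, 0.152 and 0.0773 RPKM at 3 weeks, and fell by 2.92 (SE 0.66, adjusted p = 0.00954 by edgeR). Atf3, a stress-induced factor, fell by 1.94 (SE 0.34, adjusted p = 0.00289 by edgeR), from 21.5 to 55.9 RPKM at 1 week to 4.58 to 9.58 RPKM at 3 weeks. The orphan receptor Nr4a1 fell by 1.35 (SE 0.23, adjusted p = 0.00258 by edgeR). Srxn1, which repairs oxidized peroxiredoxins and also answers to Nrf2, was the gene that rose, by 1.55 (SE 0.19, adjusted p = 0.000687 by edgeR). Junb (-0.12, adjusted p = 0.385) and Mcl1 (0.31, adjusted p = 0.184) did not pass by edgeR, while Junb passed as lower with limma on both RPKM scales.

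**Figure D4:**
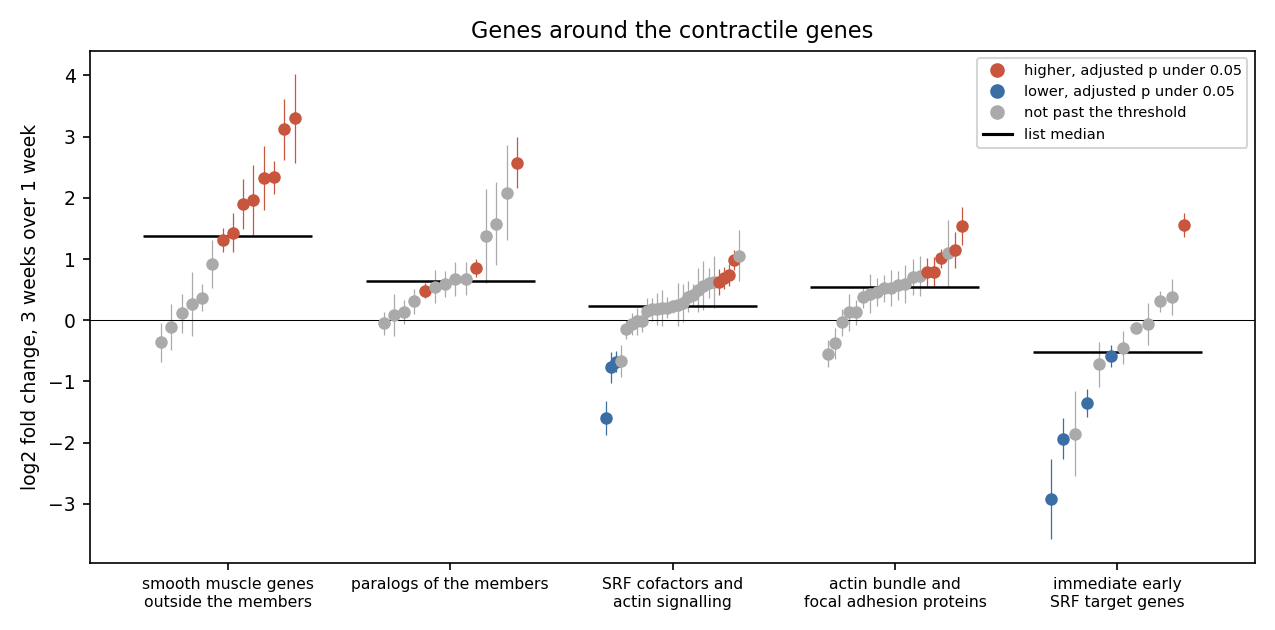
Log2 fold change, 3 weeks over 1 week, of each tested gene of 5 lists of related genes with its standard error, in red where it rose and in blue where it fell at an adjusted p-value under 0.05, and with a line at the median of each list. The medians run from 1.37 for the smooth muscle genes outside the members to -0.52 for the immediate early genes.

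Markers of cell types that tail skin can hold were summed in each sample, and 7 of 8 lists are given. The summed RPKM of 10 KC markers lay between 13521 and 15950.5 at 1 week and between 8373 and 9900.5 at 3 weeks (two-sided exact permutation test, p = 0.0286, adjusted p = 0.114 over the 8 lists). The smallest p that 4 samples against 4 can give is 0.0286, and after adjustment no list passed 0.05. Krt14 and Krt5, keratins of basal KCs, were the most abundant of the list, with means of 6941 ± 843 and 6170.4 ± 156 RPKM at 1 week and 5283 ± 606 and 2207 ± 270 RPKM at 3 weeks (SD, n = 4). KC markers were thus high in all 8 samples, but their sum was lower in each 3 weeks sample than in any 1 week sample. Krt5 (log2 fold change -1.32, adjusted p = 0.00103) and Itga6 (-0.75, adjusted p = 0.0391) fell by edgeR, and none of the 10 rose.

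The sum of 10 markers of vascular smooth muscle cells and pericytes was 2.00, 2.51, 3.22 and 3.10 RPKM at 1 week and 10.03, 5.85, 2.69 and 17.2 RPKM at 3 weeks (exact permutation test, p = 0.0857, adjusted p = 0.229). Its highest sample, replicate 4 at 3 weeks, was the lowest 3 weeks sample for 8 of the 9 contractile genes, and its lowest 3 weeks sample, replicate 3, lay between replicates 1 and 4 for the same 8 genes. Replicates 4 and 3 were also the 3 weeks libraries in which long genes were highest and lowest (0.44 and -0.59, above). The part of transcript length in the order of the sum was not tested. Notch3 alone gave 10.8 of the 17.2 RPKM in replicate 4 at 3 weeks. What this order means for the source of the contractile transcripts was not tested. Notch3, a receptor of mural cells that also occurs in epidermis, and Lmod1 made up most of the sum and rose, while Pdgfrb and Cspg4, which define pericytes, fell (edgeR, adjusted p-value under 0.05). The call of Notch3 was lost when any sample but replicate 3 at 3 weeks was left out, and that of Cspg4 without replicate 4 at 1 week or replicate 1 or 2 at 3 weeks. The other 6 genes had too few reads to be tested, 7 of the 10 stayed under 1 RPKM in each sample, and Higd1b was listed at 0 in all.

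Fibroblast markers summed to 11.4 to 13.9 RPKM at 1 week and 7.86 to 17.8 RPKM at 3 weeks (exact permutation test, p = 0.800). This sum joins 2 opposite changes. Postn, a matrix protein, rose from a mean of 0.349 to 5.34 RPKM (log2 fold change 4.07, adjusted p = 0.000615 by edgeR). Fbln1 fell from 7.04 to 1.89 RPKM (-1.75, adjusted p = 0.000369 by edgeR). No other gene of the list passed, and 5 of the 10 stayed under 1 RPKM in each sample. The 8 endothelial markers, led by Egfl7 and Kdr, summed to 3.08 to 4.58 RPKM at 1 week and 1.77 to 2.48 RPKM at 3 weeks (p = 0.0286, adjusted p = 0.114, exact permutation test). Melanocyte markers, led by Tyrp1 and Pmel, gave 3.54 to 21.4 and 1.64 to 5.94 RPKM. Immune markers, led by Lyz2 and Cd74, gave 2.29 to 6.26 and 2.11 to 6.07 RPKM, with Cd207 listed at 0 in all samples. Skeletal muscle markers, led by Mylpf and Tnnc2, gave 3.07 to 5.60 and 2.68 to 6.15 RPKM. The part of other cell types in the levels of the contractile genes was not tested.

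**Figure D5:**
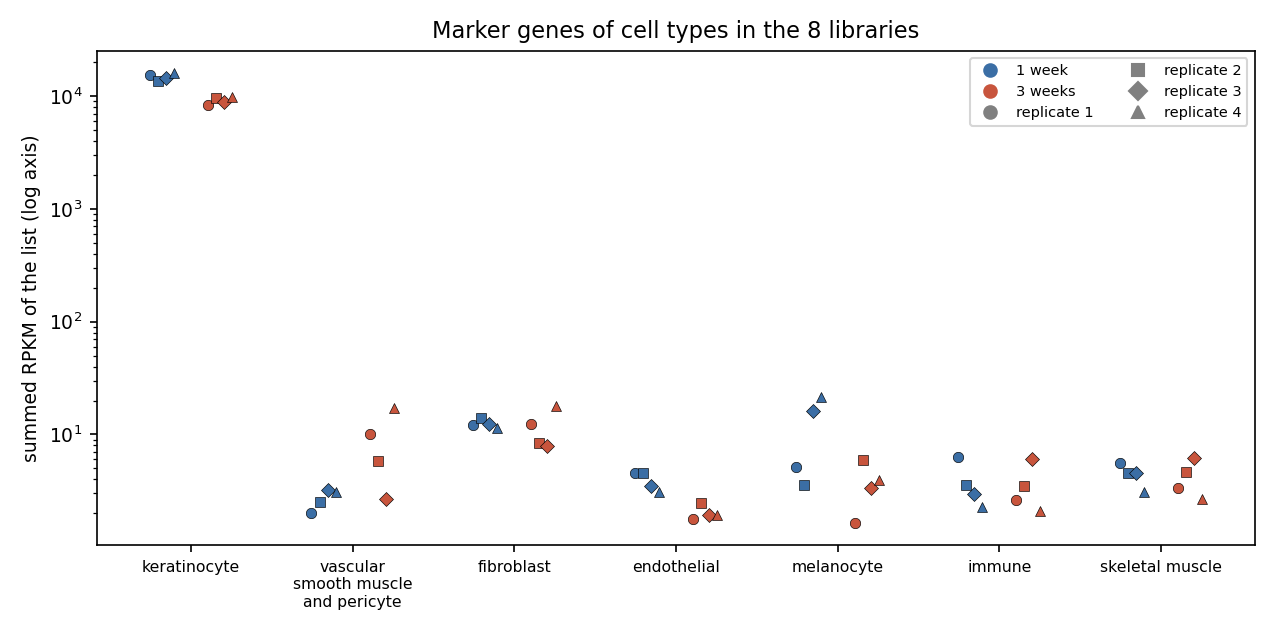
Summed RPKM (log axis) of the marker genes of 7 cell types in each of the 8 samples, with 1 week in blue, 3 weeks in red and 1 symbol per replicate number. KC markers sum to at least 8373 RPKM in each sample, and no other list exceeds 21.4 RPKM.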

How the data were processed

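The authors trimmed the reads, mapped them against GRCm38 in the CLC Genomics Workbench (default settings), and deposited 1 gene table per sample, holding counts (whole reads on exons, introns and junctions, total and mapping to 1 place) and RPKM, whose decimal commas were read as points. The annotation release and the use of strand are not given in the sources used here, so antisense partners cannot be told apart. Both columns are the authors' values for single samples.

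Total exon reads of all 8 samples were fitted without pairing, as the study used unpaired tests, with edgeR 4.0.16 in R 4.3.3 (filterByExpr, TMM, glmQLFit and glmQLFTest, Benjamini-Hochberg adjustment, threshold 0.05). Marker lists were compared by exact permutation over 70 arrangements (scipy 1.17.1). Shared sequence and promoters were taken from GRCm38 transcripts and RefSeq (GRCm38.p6). On simulated counts of 12482 genes, of which 200 were changed, 33% of 2-fold and 89% of 4-fold changes of 3 weeks against 1 week were recovered, with 5 false calls and 0 in the wrong direction. In the data a far larger share of genes was called (32.8%). The simulation also left out the shifts by transcript length, so its recovery and false calls need not hold for the data.

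The members and lists were chosen with earlier results of these data known. In each list the 4 largest changes past the threshold and the 2 most abundant genes not past it are named, together with the 2 most abundant markers of each cell type and the 5 genes most like the members. The values of 1 of the 8 marker lists are not reported here. Genes named beyond this rule were chosen after their values were seen. Replicates of a group differed by far more than counting error (smallest chi-square per degree of freedom 15.6), and each was counted as 1 sample. The series' text speaks of 4 independent experiments, and whether animals were pooled is not given in the sources used here. The p-values measure the spread between these samples. Alternatives were DESeq2 1.42.0, at least 10 reads in every sample, no filter on low counts, upper-quartile normalization, reads mapping to 1 place, all reads on the gene, limma 3.58.1 on log2(RPKM + 0.1) or log2(RPKM + 1), a block on the replicate number, a block on the number carried by the tables, and the omission of each sample.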

Additional observations from a re-analysis of the deposited data

How the results depend on the processing

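Of 161 values of member fold changes under 18 alternatives, 156 stayed within the spread between replicates, 5 moved and 0 reversed, and all 143 of members other than Srf were positive. The moved values came from limma, with Actg2 at 2.48 and 0.88 and Mylk at 2.19 and 0.82 on log2(RPKM + 0.1) and log2(RPKM + 1), and Cnn1 at 2.65 on the latter. A pseudocount lowers the fold change of genes near its size. The median of the members was 1.33 on log2(RPKM + 1) and 2.33 to 2.80 with a sample left out. Over all genes, 1981 rose and 2146 fell, and limma called 1313 and 1281 as risen and 3089 as fallen on the first scale. The cause of this shift was not tested. With a sample left out, 1371 to 2284 rose and 1631 to 2667 fell. The replicate block gave 1309 rises over all genes, 2 for the Srf cofactors and 3 for the focal adhesion genes, and the block on the number carried by the tables gave 1316 rises over all genes and 1 fall for the cofactors. Deviations of samples with the same replicate number correlated at -0.23, -0.15, -0.15 and 0.25. Those of the 3 table numbers correlated at -0.23, 0.20 and 0.25. These values do not settle whether either number pairs the samples. Limma gave 1 rise for the cofactors on each scale, and 2 rises and 1 fall for the focal adhesion genes. DESeq2 gave 7 rises for the paralogs. The calls of Cnn3, Foxo4, Vcl, Lpp and Filip1l were lost with limma on both scales and with the replicate block, and those of Cnn3 and Arhgef2 with the block on the table number. With a sample left out, rises ranged from 2 to 6 for the paralogs, 2 to 7 for the cofactors, 2 to 10 for the focal adhesion genes and 7 to 10 for the other smooth muscle genes, and the immediate early genes had 3 to 5 falls. The fibroblast sum was lower at 3 weeks in RPKM (log2 ratio -0.11) and higher in reads of 1 place (0.32). Depth limits the values of Actg2, with 2 or 3 reads in each 1 week sample, and of Mylk, with 20 to 31.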
